A study of Danio rerio with 48 samples.

Results

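A set of 26 zebrafish transcripts lay moderately below control in fish exposed to chromium and stayed close to control in fish exposed to nickel or cobalt. They were chosen from the 21903 transcripts on the array by their measured differences, where a difference is the mean log2 intensity of an exposed group minus that of the control arrays labelled for the same metal. Of the transcripts with a mean of at least 6.5 in some group, the members had a difference of -0.7 or lower in all 3 chromium groups, but not of -1.5 or lower in all 3. Their differences lay within 0.35 of control in all nickel and cobalt groups. A negative difference means that the array signal of the transcript was lower than on the control arrays.

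Adult zebrafish of 6 to 9 months were kept for 24 h in flow-through aquaria with no added metal or with nickel, chromium or cobalt, and RNA of whole fish was pooled and measured on 48 one-colour arrays, 4 in each of 12 groups. Measured concentrations in the low, mid and high groups were 56.5, 69.9 and 80.6 mg/L for chromium, 42.4, 51.0 and 64.0 mg/L for nickel, and 39.7, 46.3 and 59.5 mg/L for cobalt. Nickel and chromium shared 4 control pools, each put on an array labelled for nickel and on another labelled for chromium, while cobalt had 4 control pools of its own. The labels give no strain, genotype or sex, and they give neither the metal salt nor the oxidation state of the chromium. Every sample was a pool of whole animals, so fewer cells of a type and less RNA per cell cannot be told apart.

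Chromium occurs in water in a trivalent and a hexavalent form. The hexavalent form resembles sulfate and is carried into cells by anion transporters, where it is reduced to the trivalent form, with oxidative and DNA damage among the known effects. Nickel and cobalt enter cells as divalent cations, and both are known to stabilise hypoxia-inducible factors. In fish, gill and gut are the surfaces through which dissolved metals mostly enter. Nothing used here pairs the transcript IDs with gene names, so the members are given by ID for the few with the largest values and otherwise by rank, from 1 for the lowest mean difference over the 3 chromium groups to 26 for the highest.

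The members were a small share of what chromium lowered. Of 9416 transcripts with a group mean of at least 6.5, 560 had a difference of -0.7 or lower in all 3 chromium groups. Of these, 189 had -1.5 or lower in all 3 and 371 did not. Among the 371, 89 stayed within 0.35 of control in all nickel groups, 88 in all cobalt groups, and 26, or 7.01%, in both, whereas 40.7% of all 9416 transcripts did. In contrast, 321 of the 371 lay 0.35 or more below control in at least 1 nickel or cobalt group, and 47 lay as far above it in at least 1. Under the same limits for nickel and cobalt, 11 of the 189 more strongly lowered transcripts qualified, as did 5 of the 234 with a difference of 0.7 or more in all 3 chromium groups. These counts follow from the rule and were not tested.

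The median difference over the 26 members was -0.998 in low chromium, with members from -1.55 to -0.73. It was -1.06 in mid chromium, from -1.42 to -0.75, and -1.09 in high chromium, from -1.65 to -0.71. Averaged over the 3 chromium groups, the members were 1.69- to 2.72-fold below control with a median of 2.07-fold, and 15 of 26 were lowered over 2-fold. The median difference of all transcripts with a group mean of at least 6.5 was 0.07, 0.06 and 0.05 in the same groups. The members were therefore lowered against a background that lay slightly above control.

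Each chromium array showed the set as lowered. The members were chosen on the means of these same arrays, so the values of each array describe the set and test nothing. The median over the 26 members, taken for each array against the mean of the 4 control arrays, was -1.07 ± 0.05 (SD, n = 4) in low chromium. It was -1.06 ± 0.08 in mid chromium and -1.09 ± 0.14 in high chromium, where the 4 arrays ran from -1.21 to -0.92. On every one of the chromium-exposed arrays, all 26 members lay below their control mean. The least lowered of the arrays was replicate 3 of high chromium, at -0.92. On the control arrays themselves the same median lay between -0.07 and 0.01.

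**Figure D1:**
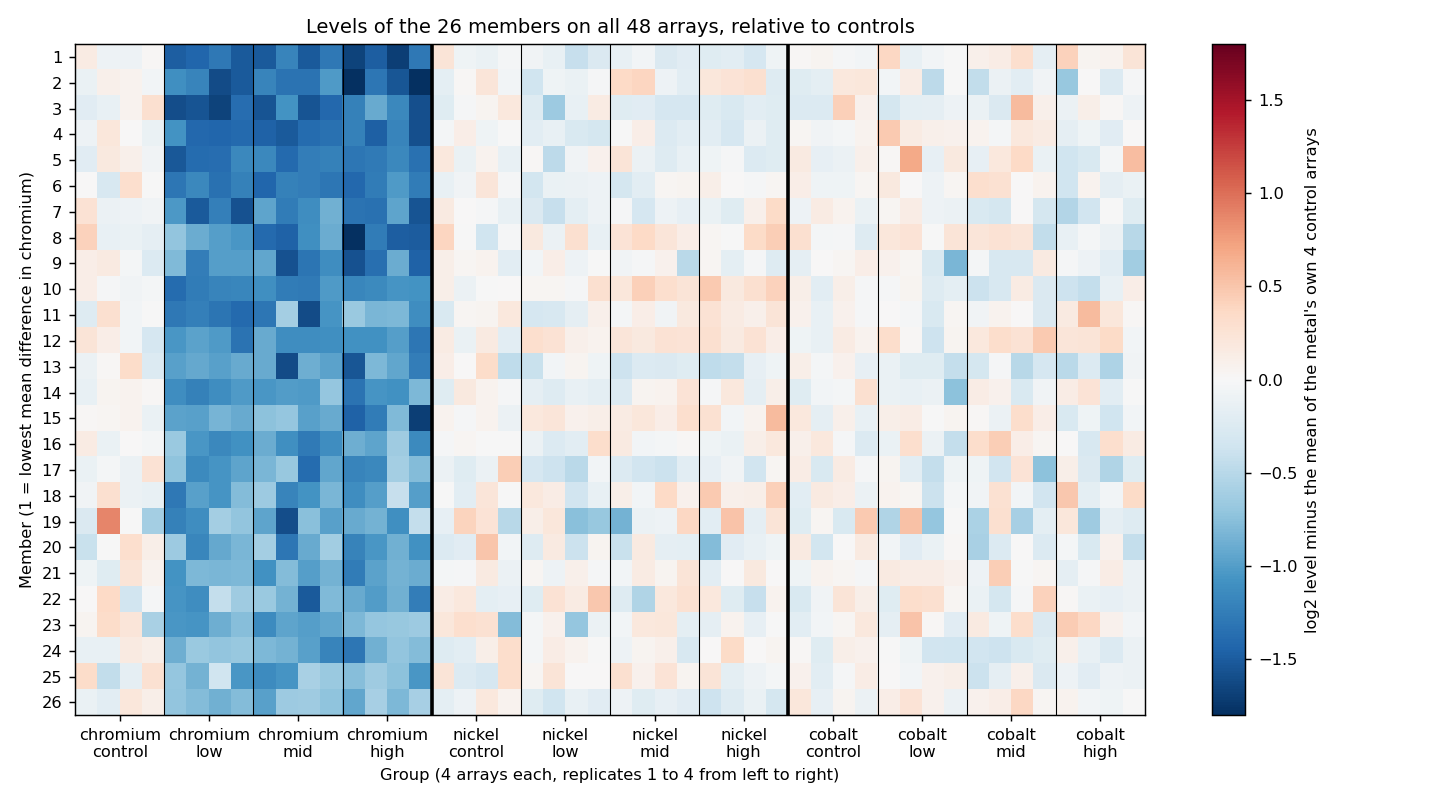
Log2 level of each member (rows, ranked by mean difference in chromium) on each of 48 arrays (columns, 4 per group), minus the mean of that metal's 4 control arrays, with blue below and red above control. The blue block is the chromium-exposed arrays, whose medians over members lie between -1.21 and -0.92, while nickel and cobalt columns are pale.

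ENSDART00000014633, rank 1, had the lowest mean difference. Its log2 levels were 8.93, 8.69, 8.70 and 8.80 on the chromium-labelled control arrays, 7.29, 7.36, 7.49 and 7.28 in low, 7.26, 7.60, 7.27 and 7.49 in mid, and 7.12, 7.30, 7.09 and 7.498 in high chromium. The highest exposed array, at 7.60, stayed below the lowest control array. Nickel-exposed arrays lay between 7.94 and 8.305 and cobalt arrays, controls included, between 7.87 and 8.44. The chromium-exposed arrays were below all of these too. However, the nickel-exposed and cobalt arrays themselves all lay below the 4 chromium-labelled control arrays. The nickel-labelled control arrays of the same pools were at 8.58, 8.27, 8.23 and 8.31.

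ENSDART00000018118, rank 3, had the lowest difference in low chromium, -1.55, and the second lowest in mid chromium. Its levels were 9.23, 9.30, 9.49 and 9.72 in control, 7.84, 7.89, 7.77 and 8.06 in low, 7.89, 8.36, 7.88 and 8.02 in mid, and 8.22, 8.53, 8.27 and 7.85 in high chromium. All 12 exposed arrays lay below all 4 control arrays and below the nickel-exposed arrays, which ran from 9.07 to 9.88. They overlapped with the cobalt arrays, which ran from 7.91 to 8.80.

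ENSDART00000074737, rank 4, had the lowest difference in mid chromium, -1.42, and was among the brighter members. Its levels were 10.74, 11.04, 10.84 and 10.72 in control, 9.76, 9.42, 9.40 and 9.44 in low, 9.38, 9.32, 9.45 and 9.49 in mid, and 9.62, 9.36, 9.64 and 9.25 in high chromium. No chromium-exposed array reached the controls, the nickel-exposed arrays (10.22 to 10.65) or the cobalt arrays (10.097 to 10.78). However, the nickel-exposed arrays themselves all lay below the 4 chromium-labelled control arrays. The nickel-labelled control arrays of the same pools were at 10.50, 10.65, 10.45 and 10.53. The means of this member were nearly flat over the chromium doses, with differences of -1.33, -1.42 and -1.37.

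ENSDART00000100714, rank 2, had the lowest difference in high chromium, -1.65. Its levels were 7.99, 8.1997, 8.17 and 8.05 in control, 6.997, 6.92, 6.496 and 6.58 in low, 6.92, 6.78, 6.78 and 7.08 in mid, and 6.17, 6.80, 6.57 and 6.26 in high chromium. The groups did not overlap with control, although the exposed groups overlapped with each other.

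ENSDART00000055132, rank 8, was the member whose level differed most between doses. Its levels were 8.03, 7.496, 7.499 and 7.47 in control, 6.91, 6.73, 6.63 and 6.57 in low, 6.23, 6.17, 6.53 and 6.73 in mid, and 5.67, 6.37, 6.15 and 6.12 in high chromium. Its group differences were -0.91, -1.21 and -1.55. All 4 high arrays lay below all 4 low arrays, and all exposed arrays lay below control. The share of all transcripts with such a separation of high from low arrays was not computed.

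**Figure D2:**
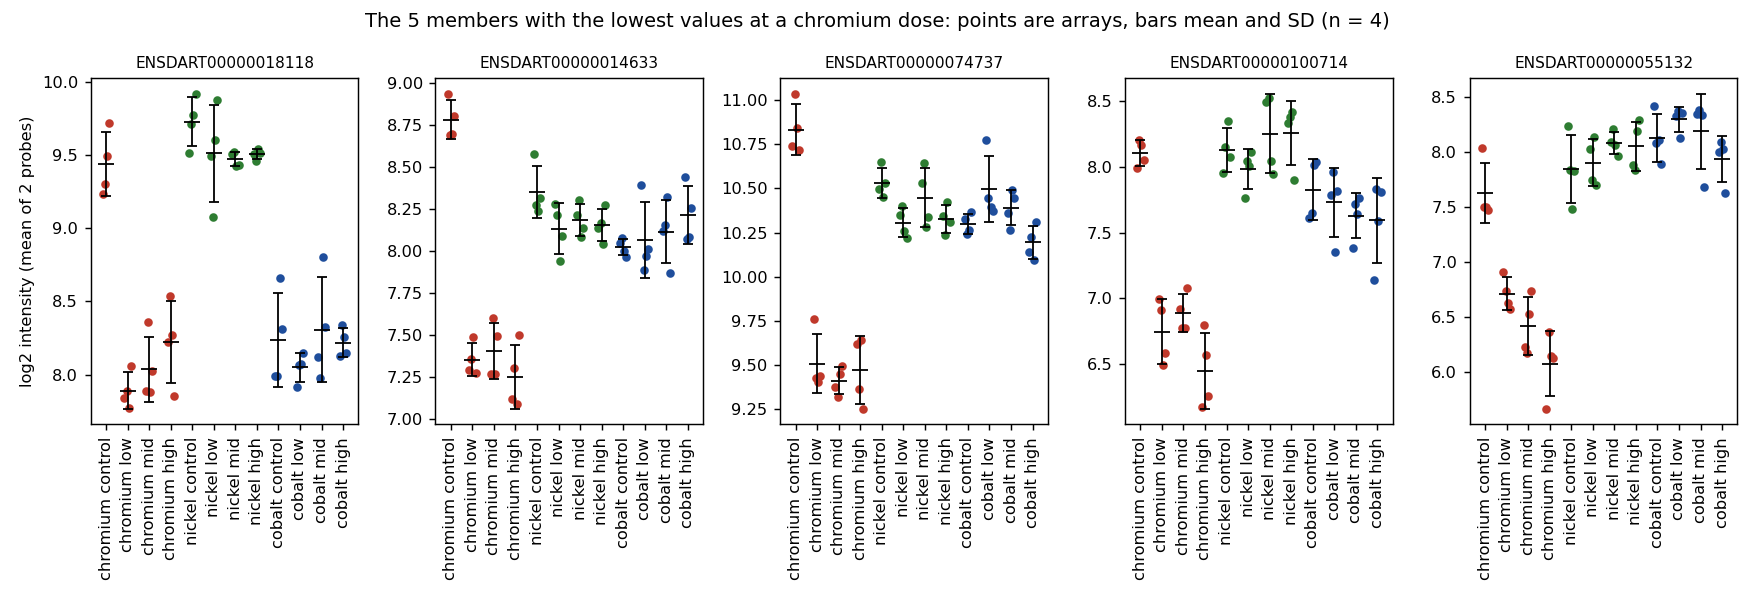
Log2 intensity (mean of 2 probes) of the 5 members with the lowest differences at a chromium dose, with points for arrays and bars for mean and SD (n = 4). Each panel has its own vertical scale. Chromium-exposed arrays lie below the chromium and nickel arrays in all 5 panels, while the cobalt arrays of ENSDART00000018118 lie at its chromium-exposed level in these deposited values.

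Over all members, the 4 exposed arrays lay wholly below the 4 chromium-labelled control arrays for 24 members in low, 26 in mid and 25 in high chromium. Over all transcripts, 8.35%, 7.83% and 9.92% did. All 12 exposed arrays lay below the 4 control arrays for 24 members. They lay below all 12 nickel-exposed arrays for 18 and, in the values as deposited, below all 16 cobalt arrays for 15. No share of all transcripts was computed for these counts over 12 exposed arrays, so how unusual they are is not known. Rank 5 met the limit of 6.5 through cobalt groups alone and rank 6 through nickel-labelled groups alone. That they lay below the arrays of that metal therefore follows in part from the rule. In the fits to chromium, all 26 members were below control past an adjusted p of 0.05 at each dose, beside 7.03%, 7.21% and 9.83% of all transcripts. The rule used these contrasts, and nothing is read from these counts.

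The members spanned dim and bright transcripts. Their mean level on the chromium-labelled control arrays ran from 6.41 to 11.096 with a median of 8.32, with 7 members above 10 and 5 below 7. The SD between replicate arrays had a median over members of 0.19 in chromium controls, 0.15 in low, 0.17 in mid and 0.20 in high chromium. Over all transcripts with a group mean of at least 6.5 it was lower, at 0.15, 0.14, 0.16 and 0.16. The widest spread of a member was 0.64, in chromium controls.

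At the limit of -0.7, ENSDART00000048218, rank 23, was just inside with -0.71 in high chromium, and ENSDART00000011704, rank 24, was next with -0.73 in low chromium. Just outside, ENSDART00000044739 had -0.72, -0.68 and -0.67 in low, mid and high chromium. ENSDART00000052688 had -0.69, -1.24 and -1.79, so that it missed the rule by its low dose alone. Just inside the limit of 0.35 for nickel and cobalt, the members of rank 13 and rank 10 reached -0.34 in high cobalt and 0.34 in high nickel. The first transcripts outside it reached -0.35. At -1.5, the members nearest the limit by their least lowered group were ranks 1 and 4, with -1.37 and -1.33, and the first transcripts beyond had -1.54 and -1.61.

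Within the limit the rule set, members lay on both sides of control in nickel and in cobalt. Their median differences were -0.11, -0.06 and 0.01 in low, mid and high nickel, with 18, 14 and 13 of 26 below 0. In cobalt they were -0.04, -0.02 and -0.10, with 14, 14 and 19 below 0. Single members ran from -0.30 to 0.34 in nickel and from -0.34 to 0.31 in cobalt. Past an adjusted p of 0.05, 0 members were higher than control in low nickel, 1 in mid and 1 in high, beside 7.1%, 6.09% and 8.09% of all transcripts. Lower than control were 0 members in low and 0 in mid nickel and 1 in high, beside 6.51%, 4.99% and 6.82%. At an unadjusted p under 0.05 there were 5, 3 and 5 members in either direction, beside 5370, 4802 and 5499 of all 21903 transcripts. In cobalt 0 members passed the adjusted p at each dose, beside 9.65%, 12% and 18.9%. At an unadjusted p under 0.05 cobalt had 1, 3 and 2 members, beside 4553, 5036 and 6338 transcripts. The rule bounded these differences, so these counts are not a test.

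The members past that threshold in nickel moved in opposite directions. ENSDART00000000069, rank 10, lay at 11.02 ± 0.09 (SD, n = 4) on the nickel-labelled control arrays, 11.31 ± 0.10 in mid and 11.35 ± 0.13 in high nickel. ENSDART00000010658, rank 26, lay at 10.71 ± 0.16 in control and 10.45 ± 0.11 in high nickel. Both were further from control in chromium, as the rule requires of every member, with mean differences of -1.18 and -0.76.

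The chromium doses were set against each other. A difference between doses takes no control array but uses the group means on which the members were chosen. The fit also held the chromium-labelled control arrays, whose spread enters the SE and p-values of each dose contrast. Limits at all 3 doses remove transcripts with a graded response that crosses them, such as ENSDART00000052688, so what follows on doses describes the members and tests nothing about dose. The lowest mean was at low chromium for 9, at mid for 7 and at high for 10. The means went down from low to mid to high for 5 members and up for 6. The range over the 3 doses had a median of 0.19 and ran from 0.04 to 0.64, against a median difference from control near -1. The lowest measured concentration was 56.5 mg/L and the highest 80.6 mg/L, so the doses lay close together.

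Between high and low chromium, 0 of 26 members passed an adjusted p of 0.05 in limma, two-sided and adjusted by Benjamini-Hochberg over all 21903 transcripts. Over all transcripts 0.507% did, 50 higher and 61 lower. At an unadjusted p under 0.05 there were 5 members, beside 2529 of all transcripts. The largest difference was that of ENSDART00000055132, -0.64 ± 0.16 (SE), which did not pass. ENSDART00000078904, rank 11, differed by 0.46 ± 0.17 in the opposite direction and did not pass either. Its 4 low arrays, at 9.38, 9.43, 9.35 and 9.27, lay below the 4 high arrays, at 9.997, 9.85, 9.86 and 9.55.

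One array decided whether a member passed. Without replicate 3 of high chromium, the member of rank 15, ENSDART00000011943, passed in high against low with -0.55 ± 0.09 (SE). Against mid chromium it then passed with -0.64 ± 0.09. Over all transcripts, leaving out that array gave 272 calls in place of 111 in high against low. In high against mid it gave 25 in place of 27. This member was singled out after its values were seen. Its high arrays were at 9.29, 9.48, 9.94 and 9.05, its low arrays at 9.77, 9.77, 9.91 and 9.83 and its mid arrays at 10.01, 10.04, 9.76 and 9.84. Only replicate 3 of the high group lay among the low and mid arrays.

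Mid against low chromium gave 0 members past the threshold and 0% of all transcripts by limma, with 0 members and 1749 transcripts at an unadjusted p under 0.05. High against mid gave 0 members and 0.123% of all transcripts, with 2 members and 2276 transcripts at an unadjusted p under 0.05. The median difference of the members was -0.01, 0.02 and 0.00 in high against low, mid against low and high against mid. In simulated data the fit recovered 70.15% of transcripts changed 1.5-fold and 95.5% of those changed 2-fold between high and low. Changes between doses, also of 1.5-fold or more, could therefore be missed, as could changes in dim transcripts, in which none were simulated. The recovery was not computed for the members, whose SD between replicate arrays was wider than that of other transcripts of such levels.

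**Figure D3:**
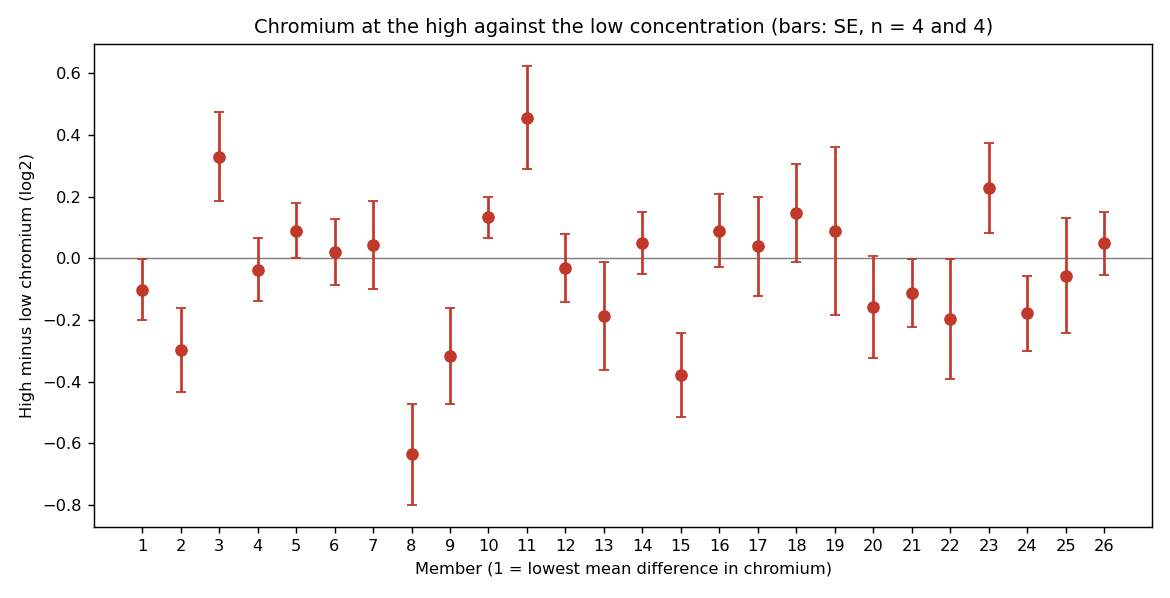
Difference in log2 level between high and low chromium for each member (horizontal axis, rank by mean difference from control), with bars for the SE of the fit (n = 4 and 4). Members lie on both sides of 0, from -0.64 at rank 8 to 0.46 at rank 11.

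Each member was measured by 2 probes, and all 52 probes lay below control in all 3 chromium groups. For 47 of them the difference was -0.7 or lower in all 3 groups, and 21 members had both probes there. The gap between the probes of a member, in mean difference over the chromium groups, had a median of 0.07. It was largest for rank 5, at 0.75, where one probe had -0.92 and the other -1.67. The less lowered of these lay at 5.77 in control and was at or below log2 5 on 11 of 12 chromium-exposed arrays, near the level of dark control spots, 99.0% of whose values were at or below 5. Such values only bound how far that probe fell. In all, 3 probes of 3 members reached that level on a chromium-exposed array. The more lowered probe of rank 5 had -1.78, -1.61 and -1.63 in low, mid and high chromium. By itself this probe was at -1.5 or lower in all 3 groups, past the limit set for members. The mean of both probes of rank 5 reached 6.5 in the cobalt groups alone. It lay at 6.41 on chromium-labelled and 6.48 on nickel-labelled control arrays. Rank 6 reached 6.5 only on the nickel-labelled control arrays, at 6.52, and in high nickel, at 6.56. That member lay at 6.41 on the chromium-labelled control arrays and at 5.11 to 5.17 in the chromium groups, near the level of dark spots. For 17 of 26 members the brighter probe was the more lowered. The limit of 0.35 in nickel and cobalt was met by both probes singly for 14 members.

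The choice among the control arrays moved single members. Against the nickel-labelled arrays of the same 4 pools, the mean differences of the members in chromium ran from -1.68 to -0.65 with a median of -1.005. Then 20 of 26 members had -0.7 or lower in all 3 chromium groups, 13 were lowered over 2-fold on average, and 15 were less lowered than against the chromium-labelled arrays. All 12 exposed arrays lay below these 4 control arrays for 23 members, a count for which no share of all transcripts was computed. The limit for nickel also depended on the control arrays. On the chromium-labelled arrays rank 1 had a mean of 8.78, beside 8.13 in low nickel, and rank 4 had 10.83, beside 10.31. Rank 8 had 7.62, beside 8.08 in mid nickel. Against the chromium-labelled arrays these members would miss the limit for nickel, in either direction. How many members would meet it was not counted.

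Between the arrays of the same pools, with pool as a block, 5 members passed an adjusted p of 0.05 in limma, beside 4.31% of all transcripts. That share includes dim transcripts. The share among transcripts with a group mean of at least 6.5, as every member has, is not given here and may differ. On the nickel-labelled arrays, ENSDART00000014633 was lower, with a difference of -0.43 ± 0.05 (SE), as were ENSDART00000061736, rank 9, with -0.33 ± 0.06, and the member of rank 4, with -0.30 ± 0.06. ENSDART00000018118 lay higher by 0.29 ± 0.06 and ENSDART00000010658 by 0.27 ± 0.05. Without the block, or with each probe fitted singly, 0 members passed. Without pool 4, 0 members passed, and without pool 1, 2 or 3, 1 member passed. The rule used both kinds of control array, so members with a high value on the chromium-labelled arrays were favoured, and these differences are a description. For rank 1, which of the arrays served as control set the mean difference in chromium at -1.44 or -1.01.

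**Figure D4:**
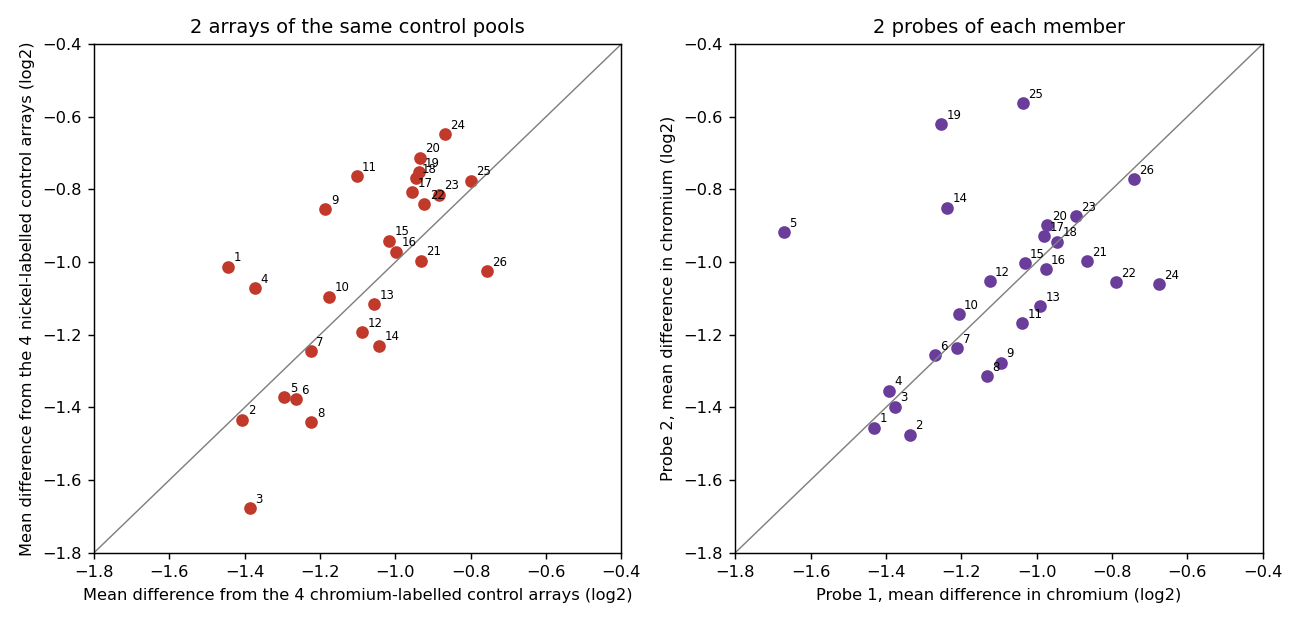
Mean log2 difference of each member in chromium (points, numbered by rank) against the chromium-labelled and against the nickel-labelled control arrays (left), and by its first and second probe (right). The diagonal marks equal values. All members are below 0 on every axis, and rank 5 lies farthest from the diagonal on the right, at -1.67 and -0.92.

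In the values as deposited, most members lay lower on the cobalt control arrays than on the other control arrays. Relative to the nickel-labelled control arrays, the cobalt control arrays had a lower mean for 22 of 26 members, with a median difference of -0.26, while the median over all transcripts was 0.00. The cobalt controls were lower past an adjusted p of 0.05 in limma for 10 members, beside 7.12% of all transcripts and 12.5% of those with a group mean of at least 6.5. They were higher for 0 members, beside 7.44%. At an unadjusted p under 0.05, 15 members differed in either direction, beside 6208 of all 21903 transcripts. The 4 cobalt control arrays lay wholly below the 4 nickel-labelled ones for 11 members, beside 9.18% of all transcripts, and wholly above for 1, beside 9.91%.

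These counts are not independent of the rule. The nickel-labelled arrays hold the pools that also served as chromium controls, and transcripts that are high in those pools meet the chromium limit more readily. The cobalt fish, their pools and their arrays were a separate set, so experiment and array set cannot be told apart. Spots taken as spike-in controls lay at a mean of 8.69 on cobalt control arrays and 10.94 on nickel-labelled ones. Scaling the arrays to these spots moved the median of all transcripts by 2.25 and that of the members to 1.99. It shifts all transcripts of an array alike. The 22 of 26 members below the median of all transcripts therefore had to stay below it, and that count checks nothing. The direction of a single member between these control sets is therefore given relative to the other transcripts of the array.

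The largest such difference was that of ENSDART00000018118. Its cobalt control arrays were at 7.99, 7.99, 8.66 and 8.31, and its nickel-labelled control arrays at 9.51, 9.71, 9.77 and 9.91, a difference of -1.49 ± 0.16 (SE). As deposited, the cobalt controls lay 0.19 above the mean of the chromium-exposed groups. All 16 cobalt arrays, exposed or not, ran from 7.91 to 8.80, beside 7.77 to 8.53 for the 12 chromium-exposed arrays.

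ENSDART00000078904 differed by -0.79 ± 0.10 (SE). Its cobalt control arrays were at 9.60, 9.39, 9.62 and 9.51, its nickel-labelled ones at 10.05, 10.36, 10.37 and 10.52, and its chromium-labelled ones at 10.44, 10.95, 10.62 and 10.65. It was the 1 member whose cobalt control mean lay below the mean of its chromium-exposed groups, with a difference of -0.03. For 7 of 26 members the cobalt control mean lay within 0.35 of the chromium-exposed mean. Over all members the cobalt controls lay above the chromium-exposed mean by a median of 0.69, and by 1.72 at most, for ENSDART00000055132. These levels hold for the deposited values alone: scaled to the spike-in spots, the cobalt controls lay above the chromium-exposed mean for all 26 members, by a median of 2.87, and 0 members lay within 0.35. That scaling was chosen after seeing the data.

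**Figure D5:**
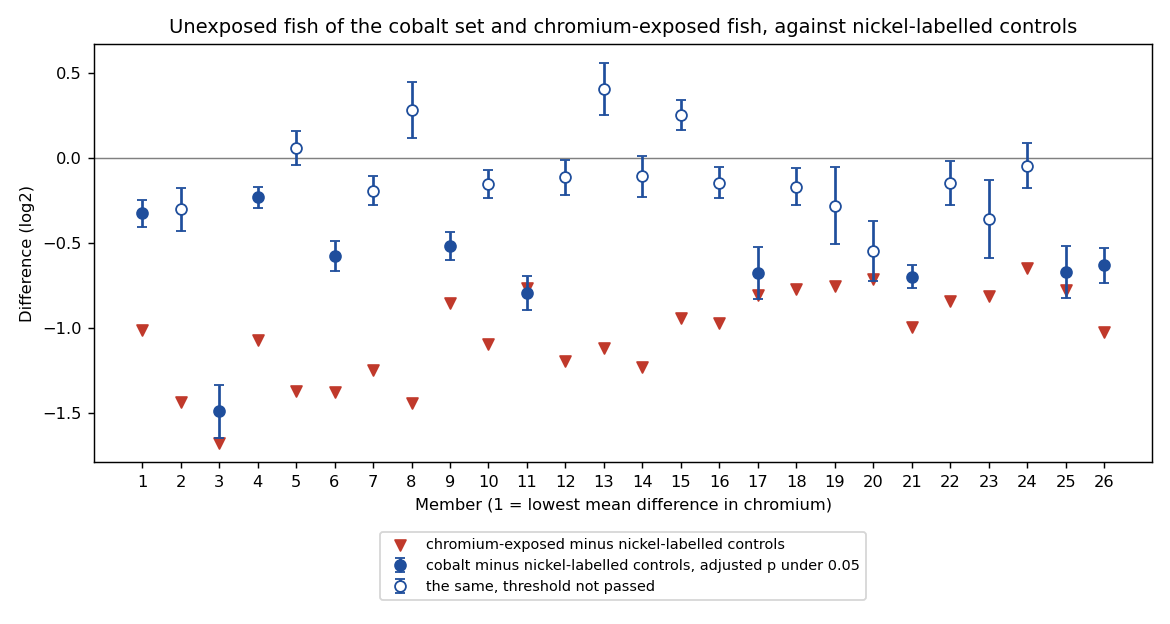
Log2 difference from the nickel-labelled control arrays, by member rank, for chromium-exposed fish (triangles, mean of 3 groups) and for unexposed fish of the cobalt set (circles with SE, n = 4 and 4, filled where the adjusted p is under 0.05). Filled circles mark 10 members, all below 0, and the circle of rank 3, at -1.49, lies near its triangle.

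Within groups the deviations of the members were mostly weakly correlated. After group means were subtracted, the correlation of member pairs over 48 arrays had a median r of 0.07 over 325 pairs and ran from -0.44 to 0.61. Over all pairs of transcripts with a group mean of at least 6.5 the median r was -0.001. An r above 0.3 was found for 9.54% of member pairs and 6.11% of all those pairs. The 2 probes of the same member had a median r of 0.45, from 0.06 to 0.71, in the same measure. Since even these were only moderately correlated, a low r between members does not show that they varied independently. The points share arrays and, for the nickel- and chromium-labelled controls, pools. Over the levels themselves, group means included, member pairs had a median r of 0.70. The members were chosen for lower levels in the same chromium groups, so this value is not a separate result. How much other differences between groups add to it was not tested.

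Membership itself moved with single arrays. When each of 48 arrays was left out in turn, the rule found between 24 and 35 members. Of the 26, 12 were found in every such run and 14 were missed in at least 1, while 47 other transcripts entered at least once. Among the members given by ID, ranks 1 to 4, 11 and 15 were found in all 48 runs, ranks 8 and 9 in 47, ranks 10, 24 and 26 in 45, and rank 23 in 43.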

How the data were processed

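Per the labels' protocols, RNA was taken from ground whole fish, pooled and labelled with Cy3 in an Agilent one-colour kit. The authors deposited log2 intensity values of 43714 probes with a transcript ID, and 61 rows of control spots, for 48 arrays. That they are log2 values was judged from their range. The sources used here do not give the scanner, background correction or normalization. Array medians lay between 5.62 and 5.66 and arrays of a group correlated at 0.983 to 0.994, so the values were used as deposited. For an alternative scaling, 6 control rows were taken as spike-ins from their names. The background level of log2 5 was chosen after seeing the data. The number of arrays limits the precision. The labels speak of pooled RNA but not of separate tanks, so p-values measure only the spread between these pools. Between nickel- and chromium-labelled controls, with pool as a block, they measure only the spread between arrays of the same pools.

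Probes of a transcript were averaged, which gave 20853 Ensembl and 1050 Vega transcripts, 21811 of them with several probes. R 4.3.3 with limma 3.58.1 (lmFit and eBayes) was run on the 16 chromium arrays for the contrasts between doses, on the 16 arrays of a metal for exposed against control, and on 8 arrays for each contrast between controls. Two-sided p-values took the Benjamini-Hochberg adjustment over 21903 transcripts, with a threshold of 0.05. Python 3.11.15 applied the rule and computed the descriptions. In simulated data with all 21903 transcripts, changes of 1.5-, 2- and 4-fold were given to 67, 67 and 66 transcripts. Only brighter transcripts were changed, and the noise was normal and independent. The contrast of high with low chromium recovered 70.15%, 95.5% and 100% of these, with 7 false calls among 184. That of cobalt with nickel-labelled controls recovered 50.7%, 85.1% and 100%, with 11 among 168. The measured contrasts called 111 and 3190 transcripts, so recovery in them may differ.

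As a check of pairing, each array's deviations from its group mean were compared. Same-numbered chromium arrays correlated between -0.171 and 0.247, which does not pair them. Titles pair the shared controls by pool, and those pairs correlated between 0.604 and 0.741, so pool was a block there. The members and lists were chosen with earlier results of these data known. The tables used here pair no transcript ID with a gene, so the lists of pathways and cell type markers matched 0 members and were not used, and the tissue label could not be checked against markers. Under the naming rule for unnamed IDs, 2 IDs per contrast and direction are printed, with the 2 members nearest the limit of -0.7; others were chosen after their values were seen. Alternatives were other scalings, probes singly, other limits, other control arrays, dim transcripts left out, other priors, the replicate block and leaving out arrays.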

Additional observations from a re-analysis of the deposited data

Results flagged for a closer look

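In 132 sets of 4 arrays, for 10 named members and the median over members, 8 arrays stood apart from the other 3 of their group by Dixon's criterion, where chance at 1 in 20 gives 6.6. ENSDART00000055132 stood at 8.03 on replicate 1 of the chromium-labelled controls, with the others at 7.47 to 7.499. It stood at 8.12 on replicate 3 of low cobalt, with the others at 8.33 to 8.37, and at 7.68 on replicate 4 of mid cobalt, with the others at 8.34 to 8.38. ENSDART00000074737 stood at 9.76 on replicate 1 of low chromium, with the others at 9.40 to 9.44. ENSDART00000048218 stood at 5.89 on replicate 4 of the nickel-labelled controls, with the others at 6.87 to 6.97. ENSDART00000100714 stood at 7.90 on replicate 4 of high nickel, with the others at 8.33 to 8.42, and ENSDART00000011704 at 7.82 on replicate 2 of high nickel, with the others at 7.48 to 7.53. The median over members stood at 0.0626 on replicate 3 of the nickel-labelled controls, with the others at -0.03 to -0.02.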

How the results depend on the processing

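The number of members was 26 as reported, 11 where every probe had to meet the rule, 14 and 72 with limits of 0.25 and 0.45 in nickel and cobalt, and 59, of which 14 were shared, with arrays scaled to spike-in spots. It stayed between 18 and 34 under the other limits, floors, scalings and control arrays tried. The nickel-labelled arrays as chromium controls gave 27, of which 19 were shared. Merging the nickel- and chromium-labelled array of a pool into 1 control value gave 29, of which 18 were shared. A similar count therefore did not mean the same members. Leaving out 1 array gave 24 to 35.

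Scaled to spike-in spots, the members' median difference was -0.95 in low and -0.95 in high chromium. Leaving out 1 array, it ran from -1.10 to -0.97 in low, -1.15 to -1.03 in mid and -1.12 to -1.02 in high chromium. Under the same scaling, the median of cobalt controls against nickel-labelled controls reversed to 1.99, and that of cobalt controls against the chromium-exposed mean moved from 0.69 to 2.87.

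Counts of transcripts past the threshold between doses were unstable, while the members' count of 0 held in each setting except without replicate 3 of high chromium. For high against low, 111 became 190 without the dimmest 25% of transcripts and 33 with a replicate block, and 3 (without replicate 1 of high) to 272 (without replicate 3 of high) on leaving out 1 array, with 0 to 1 members. It fell to 13, 13 and 23 without replicate 1, 3 or 4 of low, and to 30 without replicate 4 of high. For mid against low, 0 became 6 without the dimmest, 6 with an intensity trend and robust priors and 4 with the block, and 0 to 7 on leaving out 1 array, with 0 to 0 members. For high against mid, 27 became 0 with probes singly, 46 without the dimmest and 7 with the block, and 0 to 25 on leaving out 1 array, with 0 to 1 members.

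For nickel- against chromium-labelled controls, 943 transcripts and 5 members became 488 and 0 with probes singly, 1546 and 6 with an intensity trend and robust priors, and 118 and 0 with no replicate block. They became 69 to 219 and 0 to 1 on leaving out 1 pool, where fewer arrays were fitted. For cobalt against nickel-labelled controls, 3190 transcripts and 10 members became 2250 and 8 with a replicate block, and 2249 to 2961 and 8 to 10 on leaving out 1 array. For low, mid and high chromium against control, the replicate block gave 3300, 3544 and 4829 transcripts in place of 3357, 3552 and 4823; it was not run for nickel or cobalt against control. The cause of a changed count was not tested. For dim probes, a signal near the dark spots limits how far a fall can be measured.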
